A study of Homo sapiens with 3 samples.

Results

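Binding of HA-PSF-TFE3 around PSAP was examined in summit lists from 2 ChIP-seq libraries of doxycycline-inducible HK-2 cells. PSAP encodes prosaposin, the precursor that lysosomal proteases cut into saposins A, B, C and D. HA-PSF-TFE3 is an HA-tagged fusion of SFPQ, an RNA- and DNA-binding protein of the nucleus also called PSF, with the transcription factor TFE3. The members are the summits with a start on chromosome 10 from 73566000 to 73660000 on hg19, a window of 94 kb. They were chosen by their measured positions, so their number and clustering are given as a description, with no test. The replicate 8 list held 17 of its 44983 summits in this window and the replicate 9 list 17 of its 28084, which gives 34 of 73067 in all.

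The cells of every library were HK-2, an established human proximal tubule line, that carried the inducible HA-PSF-TFE3 construct and had received doxycycline at 0.2 µg/ml for 24 h. The group consisted of ChIP libraries 8 and 9, which the methods describe as independent clones, and 1 input DNA library from cells with the same label served the authors for peak calling. Each clone is thus seen once, and no library from uninduced cells was analysed here, so the lists do not show what the induction changed. A summit is the base of highest enrichment in a called peak, and its score is −log10 of the q-value against the input. A score depends on the depth of its library, which the lists do not give. The study's reporting summary gives read totals for both libraries, but these were not used here. Ranks within a list are therefore printed beside the scores of the stronger sites.

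Saposins are small activator proteins that help lysosomal hydrolases reach sphingolipids in membranes. Saposin C assists glucocerebrosidase and saposin B assists arylsulfatase A, and their loss causes sphingolipid storage disease. TFE3 belongs to the MiT/TFE family, which binds E-box sequences and activates many lysosomal genes. The fusion retains the DNA-binding part of TFE3. The data below concern where the fusion was found, and no RNA or protein level of PSAP was analysed here.

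PSAP is read from the minus strand. Its body was taken as 73576055 to 73611126 on chromosome 10, the hg19 interval set with the window, so its start is at 73611126 and higher coordinates lie upstream. The genome annotation at hand was GRCh38 and coordinates were not converted, so exons, introns and untranslated regions are not assigned. In that annotation the nearest protein-coding genes are CDH23, past the 3′ end of PSAP, and CHST3, on the upstream side. CDH23 encodes a cadherin and CHST3 a chondroitin sulfotransferase.

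Both libraries placed their strongest summits in the window upstream of PSAP and not at its start. The highest score lay at 73628166 in replicate 8, 17.0 kb upstream of the start, where it was 61.6 and ranked 87 in the list. Replicate 9 placed it at 73628098, 68 bp away, with a score of 126 and rank 3 of 28084. The site was therefore among the strongest of the genome in both lists, and its lower rank placed it 22nd of the 21518 summit pairs of the series. The next highest score lay 37.6 kb upstream, at 73648713 in replicate 8 and 73648729 in replicate 9. It scored 56.0 in replicate 8 and 96.7 in replicate 9, where it ranked 205 and 55, and it was 51st among all pairs. Both libraries gave these sites the same order. The sites were 20.5 kb apart in replicate 8 and 20.6 kb apart in replicate 9.

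**Figure D1:**
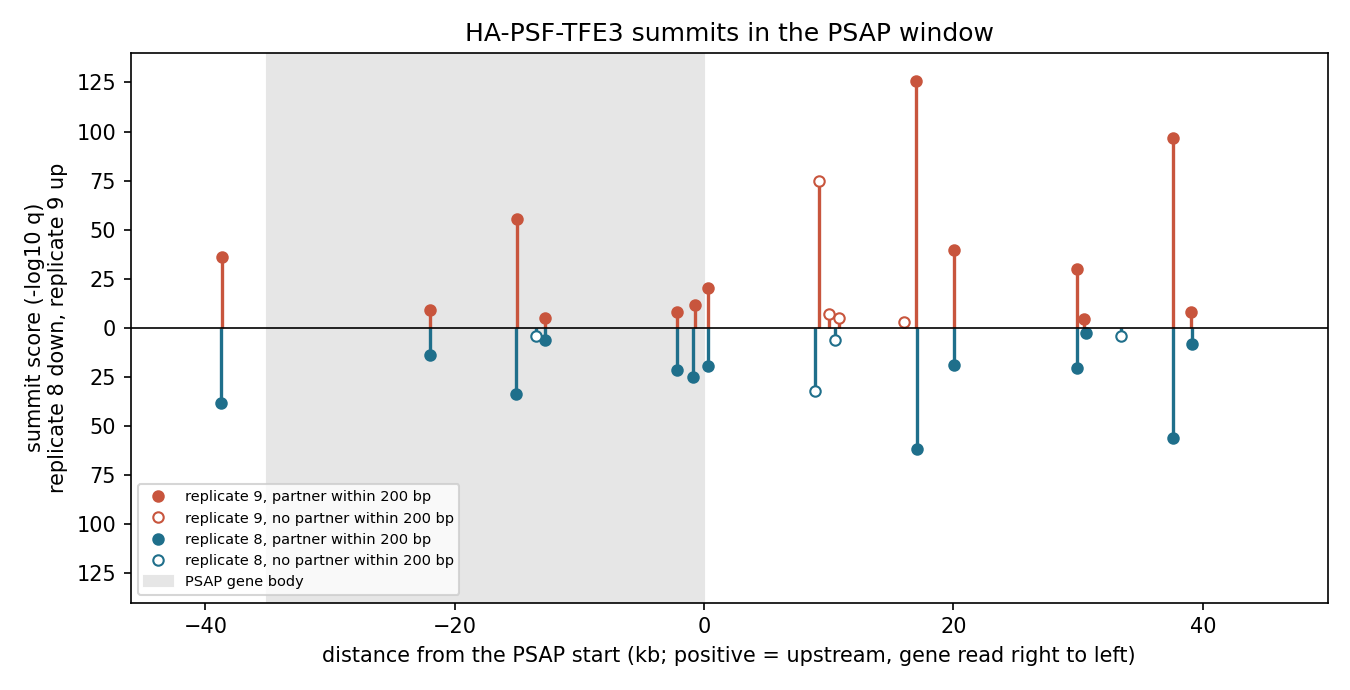
Summit scores (−log10 q) against the distance from the PSAP start in kb, with replicate 9 drawn upward and replicate 8 downward. Positive distances are upstream, grey marks the gene body, and open circles have no summit of the other list within 200 bp. The tallest lines in both libraries stand 17.0 and 37.6 kb upstream.

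A further strong site lay about 9 kb upstream, and here the libraries differed in position. Replicate 8 had a summit at 73620007, 8.88 kb upstream, with a score of 32.0 and rank 2693. Replicate 9 had one at 73620356, 9.23 kb upstream, with a score of 74.7 and rank 315. They were each other's nearest summits but lay 349 bp apart, beyond the 200 bp used to call a partner. They were the only summits of the window with a score of at least 10 and no partner. Replicate 9 added a weak summit at 73621118, 762 bp further upstream, with a score of 7.19. Next to it came summits at 73621658 in replicate 8 and 73621903 in replicate 9, with scores of 6.03 and 4.99, which were 245 bp apart. The lists hold 1 summit per peak and no peak widths, so whether the peaks themselves overlapped cannot be read from them.

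The other upstream sites scored lower than those about 9, 17 and 38 kb upstream in both libraries. At 20037 bp upstream in replicate 8 and 20038 bp in replicate 9 the summits were at 73631163 and 73631164, a single base apart, with scores of 18.9 (rank 8591) in replicate 8 and 39.5 (rank 2779) in replicate 9. At 29.9 kb upstream they were 10 bp apart, at 73641020 and 73641030, with scores of 20.7 (rank 7394) and 29.96 (rank 4508). Weaker pairs lay 723 bp beyond the 29.9 kb site and 1569 bp beyond the 37.6 kb site in replicate 8, and 588 and 1444 bp beyond them in replicate 9. The pair at 73641743 and 73641618 had scores of 2.40 and 4.39, and that at 73650282 and 73650173 had scores of 8.20 and 7.91. Replicate 8 alone listed 73644530, with a score of 4.27, and replicate 9 alone listed 73627165, with a score of 2.92. No summit of either list lay more than 40 kb upstream within the window.

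At the start itself both libraries showed summits of moderate score. The nearest lay 339 bp upstream in replicate 8, at 73611465, with a score of 19.6. In replicate 9 it lay 323 bp upstream, at 73611449, with a score of 20.1. These were 16 bp apart and close in score, and they ranked 8088 and 7598 in their lists, which is the top 18.0% and the top 27.1%. A further pair lay inside the gene within 1 kb of the start, at 73610260 and 73610430, with scores of 25.1 (rank 5120) in replicate 8 and 11.6 (rank 12810) in replicate 9. The strongest summit within 1 kb of the start was thus the inner one in replicate 8, 866 bp into the gene, and the outer one in replicate 9. Another pair lay 2.18 kb inside the gene, at 73608944 and 73608938, with scores of 21.4 (rank 7056) and 7.91 (rank 17236).

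Deeper in the gene body, 1 site stood above the others. It was at 73595996 in replicate 8 and 73596113 in replicate 9, 15.1 and 15.0 kb inside the start, where it scored 33.6 (rank 2350) and 55.3 (rank 1161). A pair 22.0 kb inside the start, at 73589135 and 73589120, had scores of 13.9 (rank 13058) and 9.21 (rank 15379). Another at 73598368 and 73598386 had scores of 6.30 and 4.85. Replicate 8 alone listed 73597611, with a score of 4.33. Past the end of the gene a single pair lay at 73572400 and 73572445, with scores of 38.5 (rank 1460) and 36.3 (rank 3252). It was 3655 bp beyond the PSAP body in replicate 8 and 3610 bp in replicate 9, on the side where CDH23 is the next protein-coding gene. The extent of CDH23 on hg19 was not at hand, so whether this pair lay inside CDH23 was not determined.

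By zone, replicate 8 had 1 summit past the gene, 5 in the body more than 1 kb from the start, 2 within 1 kb of the start and 9 further upstream. Replicate 9 had 1, 4, 2 and 10. Above the median score of their whole list, 8.20 in replicate 8 and 10.5 in replicate 9, lay 12 (70.6%) and 9 (52.9%) of the 17 summits. A score of 10 was thus below the median of the replicate 9 list, and the share of each whole list that reached it was not taken. Scores of at least 10 were reached by 11 summits in replicate 8 and by 9 in replicate 9. Of these, 5 in each library lay more than 1 kb upstream, at 5 sites about 9, 17, 20, 30 and 38 kb from the start. The remaining 6 and 4 lay at the start, in the gene or past it. All 3 of the strongest replicate 9 summits and 2 of the 3 strongest replicate 8 summits were upstream, and the remaining one of replicate 8 was that past the gene.

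Most summits recurred between the libraries. Of the 17 replicate 8 summits, 13 (76.5%) had a replicate 9 summit within 200 bp, beside 47.9% over that whole list. Of the 17 replicate 9 summits, 13 (76.5%) had a replicate 8 summit within it, beside 76.6% over that whole list. The share in replicate 9 was therefore that of its list. The replicate 8 summits of the window were stronger than their list, with a median score of 19.6 beside 8.20. In replicate 9 these medians were 11.6 and 10.5. The shares were not compared with those of summits of like score. The 4 summits without a partner had a median score of 5.18 in replicate 8 and of 6.09 in replicate 9, whereas those with one had medians of 20.7 and 20.1. Within 500 bp the number rose to 15 of 17 in each library, because the summits 349 and 245 bp apart were then joined. Within 50 bp it was 8 of 17 in each. Shares over the whole lists were taken at 200 bp only, so the counts at 500 and 50 bp have no list value beside them.

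**Figure D2:**
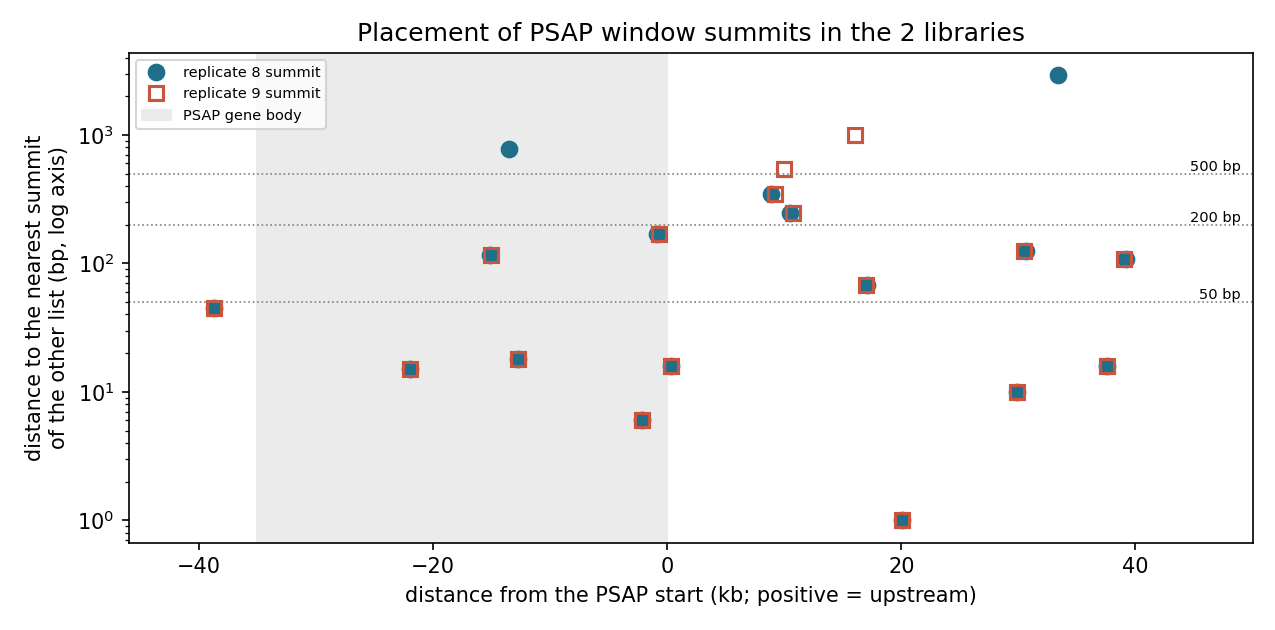
Distance in bp, on a log axis, from each summit of the window to the nearest summit of the other list, against the distance from the PSAP start in kb. Filled circles are replicate 8, open squares replicate 9, and dotted lines mark 50, 200 and 500 bp. Between 200 and 500 bp lie 2 summits of each list, about 9 and 11 kb upstream, and 4 summits lie above 500 bp.

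The 13 pairs formed by mutually nearest summits lay 1 to 170 bp apart, with a median of 18 bp. The median over all 21518 pairs of the series was 52 bp, with quartiles of 23 and 98 bp. Of the PSAP pairs, 7 (53.8%) were under 20 bp apart, beside 20.9% of all pairs. The limit of 20 bp was not part of the planned comparisons, and it falls between PSAP separations of 18 and 45 bp. The separations did not follow strength within the window. The strongest pair was 68 bp apart, and the pair at 12.8 kb inside the start, one of the weakest, was 18 bp apart.

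Scores of the 13 PSAP pairs rose together in the 2 libraries. Spearman's rho was 0.83, beside 0.73 over all pairs of the series. This is a description, because the points are neighbouring sites from the same libraries. The pair at 17.0 kb was first and that at 37.6 kb was second in both lists, and those 12.8 kb inside the gene and 30.6 kb upstream were 12th and 13th in both. The widest gaps in rank were at the 5′ part of the gene. The pair 2.18 kb inside the gene stood at percentile 70.4 among paired summits in replicate 8 and at 31.8 in replicate 9. The pair 866 bp inside the gene stood at 78.1 and 48.0. In the other direction, the pair at 73631163 and 73631164 upstream stood at 64.1 and 88.4.

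These gaps fell on different sides of the start. Each pair's ratio of scores, replicate 9 over replicate 8, was compared with the median ratio of all pairs of like strength, meaning those within 5 points of its mean percentile. All 6 pairs more than 1 kb upstream had a ratio above that median, with a median ratio of 1.78. Of the 7 pairs at the start, in the gene or past it, 2 were above it, and their median ratio was 0.77. The ratio was 0.37 at 2.18 kb inside the gene and 0.46 at 866 bp inside, lower than in all but 7.67% and 9.73% of pairs of like strength. The pair nearest the start had a ratio of 1.03, close to the median of 0.98 for its strength, and that 15.1 kb inside the gene had 1.65. The division at the start was made after the values were seen, neighbouring sites of a library are not replicates, and no test was made.

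**Figure D3:**
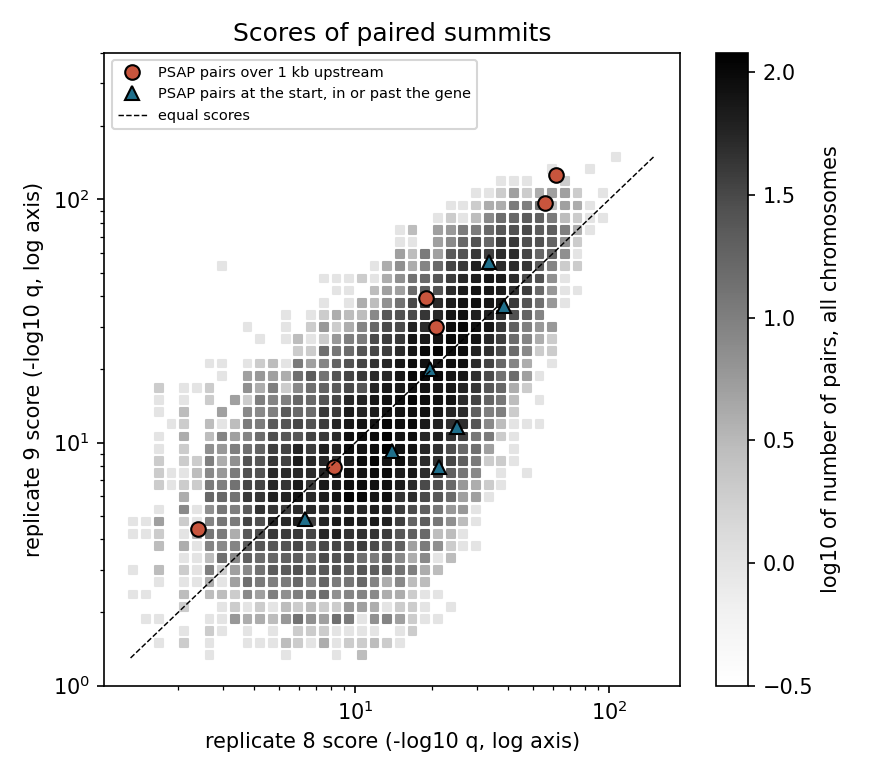
Scores of paired summits on log axes, replicate 8 across and replicate 9 up, with grey squares shaded by the number of the 21518 pairs and a dashed line at equal scores. Circles are the 6 PSAP pairs over 1 kb upstream and triangles the 7 at the start, in the gene or past it. The pairs at 17.0 and 37.6 kb upstream sit near the upper end of all pairs, and the triangles with scores of 21.4 and 25.1 in replicate 8 lie well below the line.

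The window held many more summits than most of its size. Consecutive windows of 94 kb over all chromosomes held a mean of 1.38 ± 2.28 replicate 8 summits (SD over 32535 windows) and 0.87 ± 1.59 replicate 9 summits (SD over 32398 windows). The PSAP window, with 17, held 12.3 and 19.6 times these means. The means are low in part because 53.5% of the windows held no replicate 8 summit and 61.8% no replicate 9 summit, with a median of 0 in both. At least 17 summits were found in 19 windows of replicate 8 and in 2 of replicate 9. These windows stand at fixed steps, whereas the PSAP window was set around its summits. When windows were instead started at summits and taken fullest first without overlap, 83 in replicate 8 and 11 in replicate 9 held at least 17, that around PSAP included, and 59 and 8 held more. The PSAP cluster was thus one of many dense regions by number of summits in replicate 8 and one of fewer in replicate 9.

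**Figure D4:**
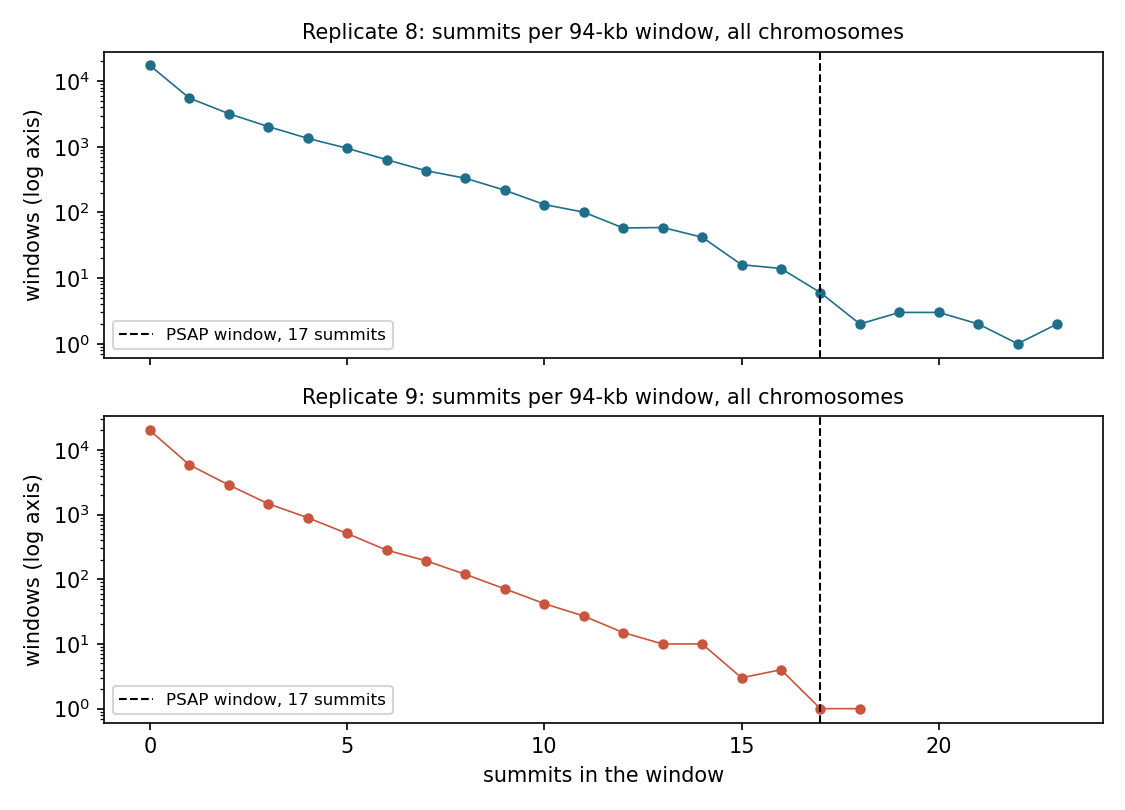
Number of consecutive 94-kb windows, on a log axis, against the summits they held, for replicate 8 above and replicate 9 below, over all chromosomes. The dashed line marks the 17 summits of the PSAP window, a count reached by 19 windows in replicate 8 and by 2 in replicate 9.

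Joining summits up to 10 kb apart divided the window into 3 groups in both libraries. The single summit past the gene formed one. The summits of the gene's interior formed another, with 4 in replicate 8 and 3 in replicate 9 over 9.2 and 9.3 kb. The last ran from 2.2 kb inside the gene to 39 kb upstream. It held 12 summits over 41.3 kb in replicate 8, from 73608944 to 73650282, and 13 over 41.2 kb in replicate 9, from 73608938 to 73650173. Among all groups of the list it was 33rd by number of summits, with ties, of 26166 in replicate 8 and 3rd of 19178 in replicate 9. The median gap between successive summits in the window was 2.89 kb in replicate 8 and 2.67 kb in replicate 9, beside 15.6 and 27.8 kb over the whole lists.

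The cluster began and ended at the same pairs in both libraries. Below the window the nearest summits were 31.2 kb outside it in replicate 8 and 31.0 kb in replicate 9, at 73534834 and 73534984, with scores of 15.1 and 20.1. Above it the nearest was 20.6 kb outside in replicate 8, at 73680620, with a score of 1.43, and 56.3 kb outside in replicate 9, at 73716302, with a score of 10.1. The outermost summits inside the window scored 38.5 and 36.3 on the lower side and 8.20 and 7.91 on the upper side.

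The leading sites of the cluster were also close to each other. Of the pairs in the series, 111 had both summits in the top 1% of their lists, and 2 of these were the PSAP pairs 17.0 and 37.6 kb upstream. No other neighbours among the 111 were as close. The PSAP pairs were 20.5 kb apart, and the next closest were 109 kb apart. In the top 10% of both lists the window held 3 pairs of 1973, the third being that 15.1 kb inside the gene, and 30 of the fixed windows held at least 3. The cutoff of 1% was picked after the values were seen. At the 5% level the window again held 2 pairs, and 46 of the fixed windows held at least 2.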

How the data were processed

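Chromatin was digested enzymatically and precipitated with an anti-HA matrix. For each ChIP library alone, the authors compared signal with the input in MACS2 and deposited 1 summit of 1 bp per peak with a score, −log10 of the q-value. The submitters' processing notes name hg19. The study's methods name both hg38 and hg19, and both a p-value and a q-value cutoff. In replicate 8, 364 summits, and in replicate 9, 262, lay past the ends of hg38 chromosomes, 55 and 39 of them on chromosome 10, and hg19 was used. The lowest scores, 1.37 and 1.33, lie just above 1.30, the score of a q-value of 0.05.

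Positions are counted from 1. Summits were partnered within 200 bp and paired where mutually nearest. The window, its gene interval and the comparisons were chosen with earlier results of these data known. Described in full were the 5 strongest summits of each list, those within 1 kb of the start, those without a partner and a score of at least 10, and the pairs with the widest rank gap. Distance functions were tested on simulated data with planted partners. No significance test was made, and depth is not given by the lists. Alternatives were other distances, minimum scores, merging under 500 bp, equal list lengths, other windows and each replicate alone. Software was matplotlib 3.10.9, pandas 2.3.3, scipy 1.17.1, numpy 2.4.6 and Python 3.11.15.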

Additional observations from a re-analysis of the deposited data

How the results depend on the processing

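The count of 17 summits was the same with each library alone and with summits under 500 bp apart merged. It fell to a mean of 15 per library with equal list lengths and 13.5 with a minimum score of 5. It was 10 with a minimum score of 10 and 5.5 in the gene body alone. With a minimum score of 10 the upstream summits fell from 9.5 to 5 per library. The share with a partner fell to 47.1% in each library within 50 bp. With equal list lengths it was 92.3% of the 13 summits left in replicate 8 and 70.6% of 17 in replicate 9. Shares over the whole lists were not taken at these settings, so whether the window differed from its lists there is not known. The correlation of scores was 0.60 across 8 pairs within 50 bp, 0.87 across 15 within 500 bp and 0.86 where Pearson's r of log10 scores was taken. The share of windows with at least as many summits was 0.032%, from 0.0062% to 0.058% with each library alone, and 0.10% on chromosome 10. As a count it rose from 10.5 to 47 with windows started at summits, an alternative chosen after the data were seen. The summit near the start lay 866 bp inside the gene in replicate 8 when the strongest was taken and 339 bp upstream when the nearest was taken. The changes with a minimum score or in the gene body alone follow from fewer summits being counted, and the cause of the others was not tested. Depth was not used, so a summit absent from a list is one that did not pass the authors' threshold.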

Other observations

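Promoters of genes that work with saposins, or that sort or cut lysosomal proteins, were searched for the E-box and AP-1 letters on both strands, in RefSeq promoters of GRCh38.p14 of 300 bases each. Entries were matched for 9 of 12 listed genes. A gene was counted as holding a motif if any of its entries did, whereas the shares of all promoters are shares of entries. Genes and shares are therefore not in the same unit. PSAP itself had no entry, so its own promoter was not searched. CACGTG was present at CTSD, the gene of the protease cathepsin D, and in 7.26% of all 35116 promoters. CACATG was present at GALC, which encodes galactosylceramidase, GRN, which encodes progranulin, and SCARB2, which encodes a lysosomal membrane receptor, and in 11.1% of all promoters. The longer TCATGTGA, which holds CACATG on the opposite strand, was present at GALC and GRN and in 0.9995% of all. TCACGTGA, which holds CACGTG, and TGACTCA were present at 0 of the 9 genes and in 0.98% and 4.95% of all promoters. These matches are letters in a window and were not compared with the summits, which are on another build.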
